A study of Mus musculus with 4 samples.

Results

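The NFAT transcription factor genes were followed in cultured fibroblasts from mouse embryos (MEFs), which are cells of connective tissue. The family was taken by gene symbol: Nfat5, Nfatc1, Nfatc2, Nfatc3 and Nfatc4, which are 5 of the 19938 genes that the array reads with probe sets assigned to 1 gene. Each of the 5 was read by 1 probe set. The study crossed 2 genotypes with 2 media. Cells labelled NFAT5/TonEBP knockout and wild-type cells were each cultured without synchronisation for 20 hours, either in hypertonic medium brought to 450 mosmol/kg with NaCl or in isotonic medium, for which the labels state no osmolality. Each of the 4 combinations was read on 1 array from a pool of 4 samples, as the series' design text states. The array was the Affymetrix Mouse Gene 1.0 ST. The labels do not say which part of Nfat5 was deleted, from how many embryos or lines the cells came, or whether the genotypes were littermates.

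The NFAT factors share a DNA-binding domain related to that of the Rel and NF-kB proteins and recognise sites built around the letters GGAAA. NFATc1 to NFATc4 are held in the cytoplasm by phosphorylation. Calcium entering the cell activates the phosphatase calcineurin, which strips these phosphates and lets the factors into the nucleus, while kinases such as GSK3, casein kinase 1 and the DYRKs send them out again. NFAT5, also called TonEBP, lacks the calcineurin-docking region. It is activated by hypertonicity, binds tonicity-responsive enhancers (TonE) as a dimer and switches on genes that let cells gather organic osmolytes.

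Since each group was a single array, replicate spread is unknown, no test could be made and no p-value is given. Values are log2 signals, and differences are on the log2 scale, where 1 is 2-fold. As a gauge of error within arrays, genes read by a pair of probe sets were used: the difference measured by a probe set varied with an SD between 0.15 (457 genes, wild-type response to hypertonic medium) and 0.23 (477 genes, difference between the responses of the genotypes). That SD holds none of the variation between cultures. A dim limit was set for each array at the median over its probe sets with 1 gene, between 5.38 and 5.44, and a gene was called measured where at least 1 of the arrays compared exceeded it. The 4 arrays correlated across probe sets between 0.979 and 0.989. The lowest values, 0.979 and 0.980, were between the knockout-labelled hypertonic array and those of wild-type cells. That array correlated at 0.984 with the knockout-labelled isotonic array. The latter was nearer to the wild-type hypertonic (0.985) and wild-type isotonic (0.986) arrays. Of 11 fibroblast markers on the array, 9 were above the dim limit on each of the 4 arrays, and Dcn and Lum were below it on all 4. None of 6 endothelial markers and at most 1 of 6 haematopoietic markers, Cd68, passed it on any array. Between 2 and 3 of 7 epithelial, 1 of 4 neural and Schwann and between 1 and 2 of 6 muscle markers passed it. The X-inactivation RNA Xist read 3.16 and 3.75 in knockout-labelled hypertonic and isotonic cells, against 9.31 and 8.99 in wild-type hypertonic and isotonic cells, so the cell populations differed in more than the labelled gene.

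Nfatc4 was the NFAT gene whose signal differed most between the arrays, and the start of this gene is therefore shown beside that of Nfat5, the gene named in the knockout. Both windows run from 250 bases before to 50 bases after the start site on the plus strand, from RefSeq on GRCm38.p6, at chr14:55824545-55824844 for Nfatc4 and chr8:107293220-107293519 for Nfat5. Capitals mark the NFAT core GGAAA, which reads TTTCC where it lies on the other strand.
Nfatc4: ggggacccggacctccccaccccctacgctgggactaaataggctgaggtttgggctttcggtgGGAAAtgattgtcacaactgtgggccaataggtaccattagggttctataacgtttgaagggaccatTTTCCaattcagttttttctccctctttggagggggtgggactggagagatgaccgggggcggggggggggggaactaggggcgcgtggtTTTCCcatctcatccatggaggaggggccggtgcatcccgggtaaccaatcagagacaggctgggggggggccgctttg
Nfat5: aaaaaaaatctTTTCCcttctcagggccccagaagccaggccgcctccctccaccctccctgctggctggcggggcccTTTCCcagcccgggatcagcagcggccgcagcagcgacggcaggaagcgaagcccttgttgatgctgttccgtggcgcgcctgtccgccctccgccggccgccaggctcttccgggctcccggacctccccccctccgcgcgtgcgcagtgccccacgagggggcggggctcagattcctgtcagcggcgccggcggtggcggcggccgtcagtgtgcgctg

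The Nfatc4 window held GGAAA 3 times over both strands, and the Nfat5 window 2 times. Of 32851 RefSeq promoter windows of this length, 61.3% held GGAAA at least once and 9.42% held it 3 or more times. TGGAAA, the letters that open the TonE site and that contain GGAAA, occurred 1 time in the Nfatc4 window and in 21.4% of all windows. The whole TonE consensus was in neither window. It matched 1 time in 1 of the 2 Nfatc2 windows, and 4.96% of all windows had a match. Of the 2 Nfatc3 windows, 1 held GGAAA a single time and the other did not hold it. A match of letters describes the window and is not a binding site.

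Nfat5 did not read lower in the cells labelled as its knockout. Its signal was 8.24 in knockout-labelled hypertonic, 8.03 in knockout-labelled isotonic, 8.19 in wild-type hypertonic and 7.74 in wild-type isotonic cells. The hypertonic array was the higher one in both genotypes, and the wild-type isotonic array was the lowest of the 4. Probes that lie outside a deleted part would read on in a knockout, and since the deleted part is not given, this signal does not check the label. The cells are therefore called knockout-labelled throughout. In wild-type cells Nfat5 was higher in hypertonic than in isotonic medium by 0.45, which is 1.37-fold and 3.04 times the probe set SD of that comparison. Of the other measured genes, 6.45% were at least as far up. In knockout-labelled cells the same contrast was 0.21, or 1.13 times the probe set SD, and 20.4% of the other measured genes were at least as far up. The genotypes differed by 0.29 in isotonic medium and by 0.05 in hypertonic medium, knockout-labelled minus wild type. Signals on the knockout-labelled hypertonic and wild-type hypertonic arrays thus differed by less than the probe set SD of 0.21.

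Nfatc4 encodes a calcineurin-regulated factor known from heart, vessels and brain. Its signal was 6.23 in knockout-labelled hypertonic and 6.60 in knockout-labelled isotonic cells, against 8.14 in wild-type hypertonic and 7.26 in wild-type isotonic cells. Both knockout-labelled arrays were below both wild-type arrays, and all 4 values were above the dim limit. The wild-type hypertonic array was the highest and the knockout-labelled hypertonic array the lowest, so hypertonic medium went with the higher signal in wild-type cells and with the lower one in knockout-labelled cells.

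In hypertonic medium Nfatc4 was lower in knockout-labelled than in wild-type cells by a log2 difference of -1.91, which is 3.76-fold and 9.22 times the probe set SD. It was the 1 NFAT gene of 4 measured that passed 2-fold in this comparison. Among all 10374 measured genes, 934 passed 2-fold (9.00%), of which 667 were lower (6.43%), and 127 genes other than Nfatc4 (1.22%) were at least as far down. In isotonic medium the difference was -0.66, or 1.58-fold, and 3.17% of the other genes were at least as far down. No NFAT gene passed 2-fold there, where 2.87% of 10191 measured genes did.

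The response of Nfatc4 to hypertonic medium was 0.88 in wild-type cells, 1.85-fold higher and 5.94 times the probe set SD, with 1.51% of the other genes at least as far up. In knockout-labelled cells it was -0.37, or 1.98 times the probe set SD, a size in which it was not unusual, since 23.3% of the other genes were at least as far down. No NFAT gene passed 2-fold in either response, against 1.42% of 10134 measured genes in wild-type and 3.46% of 10277 in knockout-labelled cells. Subtracting the wild-type response from that of knockout-labelled cells gave -1.26 for Nfatc4, the 1 NFAT gene past 2-fold in that contrast. Of all 10542 measured genes 6.94% passed it in either direction and 5.53% as negative differences.

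Most measured fibroblast markers were lower, as Nfatc4 was, in knockout-labelled than in wild-type hypertonic cells. Of their 9 measured members, 6 were at least 2-fold lower in knockout-labelled than in wild-type hypertonic cells: Col1a1, Col1a2, Col3a1, Pdgfra, Pdgfrb and S100a4. Of all measured genes 6.43% were. Among markers of other cell types, the neuronal tubulin gene Tubb3 (-1.07) and the smooth muscle gene Cnn1 (-1.47, with both knockout-labelled signals below the dim limit) were at least 2-fold lower too. Both were also at least 2-fold lower in isotonic medium, Tubb3 by -2.09. Of 4 measured epithelial markers, 3 were higher in knockout-labelled hypertonic cells, none by 2-fold. Pdgfra, a growth factor receptor of mesenchymal cells, differed by -1.57 and Pdgfrb by -1.55, while the filament gene Vim (-0.07) and the fibronectin gene Fn1 (0.23) did not pass the limit. The summed marker signal was 13.64 and 14.09 in knockout-labelled hypertonic and isotonic cells and 14.47 and 14.33 in wild-type hypertonic and isotonic cells. Whether these shifts have a part in the Nfatc4 result was not tested. In pooled RNA, fewer cells of a type and less RNA per cell cannot be told apart.

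**Figure D1:**
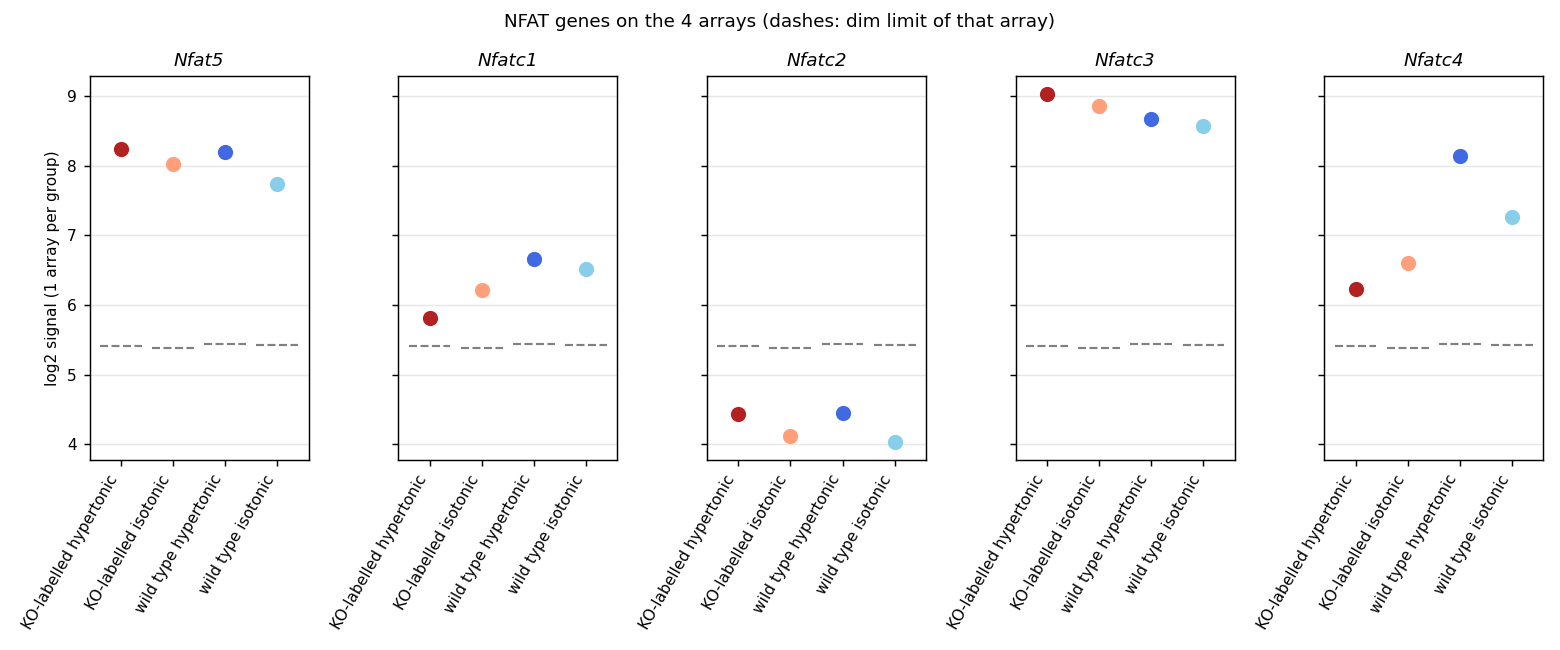
Log2 signal (vertical axis) of the 5 NFAT genes on the 4 arrays, 1 point per array, with dashes at the dim limit of each array. Nfatc4 lies at 6.23 and 6.60 on the knockout-labelled arrays and at 8.14 and 7.26 on the wild-type arrays, Nfatc2 lies below the limit on all 4, and heights are to be read within a gene, since probe sets of different genes are not on a common scale.

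Nfatc1, which encodes the factor best known for osteoclast and heart valve formation, followed the same order as Nfatc4 over a narrower range. It read 5.81 and 6.21 in knockout-labelled hypertonic and isotonic cells, against 6.66 and 6.52 in wild-type hypertonic and isotonic cells. Both knockout-labelled signals were below both wild-type signals here too. In hypertonic medium it differed by -0.85 between knockout-labelled and wild-type cells, 1.81-fold lower and short of the 2-fold limit, with 8.52% of the other genes at least as far down. At 1.5-fold, which 23.8% of all measured genes passed, both Nfatc4 and Nfatc1 passed in hypertonic medium. Nfatc4 alone passed it in isotonic medium (8.78% of all genes) and in the wild-type response (7.42%). In isotonic medium the difference was -0.31. Its response was -0.40 in knockout-labelled and 0.15 in wild-type cells. The wild-type response was 0.99 times the probe set SD of its comparison.

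Nfatc3, a calcineurin-regulated factor with roles in T cell development and muscle, ran the other way. Its signal was 9.03 and 8.85 in knockout-labelled hypertonic and isotonic cells, against 8.67 and 8.56 in wild-type hypertonic and isotonic cells. Both knockout-labelled arrays were above both wild-type arrays. The differences between genotypes were 0.36 in hypertonic and 0.29 in isotonic medium, each under 2 times the probe set SD (1.75 and 1.54 times). The responses to hypertonic medium were 0.18 in knockout-labelled and 0.10 in wild-type cells, both below 1 probe set SD, and their difference was 0.08.

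Nfatc2, a main NFAT factor of T lymphocytes, read 4.44 and 4.13 in knockout-labelled hypertonic and isotonic cells and 4.44 and 4.03 in wild-type hypertonic and isotonic cells. All 4 signals lay below the dim limit, so Nfatc2 was not measured in any comparison and its differences mostly describe background. They were 0.31 for the response of knockout-labelled cells and 0.42 for that of wild-type cells. In wild-type cells Nfat5 differed about as far, but it read above the dim limit on all 4 arrays. The difference of Nfatc2 therefore gives no gauge of error for Nfat5.

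Across the family, all 5 genes had a positive difference in the response of wild-type cells, beside 46.0% of all measured genes. Nfatc2 among them was below the dim limit, and Nfatc1 and Nfatc3 differed by less than 1 probe set SD. In knockout-labelled cells 3 were positive and 2 negative, beside 39.9% of all measured genes above 0. The median over the 4 measured genes was 0.30 in wild-type and -0.10 in knockout-labelled cells, beside -0.02 and -0.09 over all measured genes of each comparison. The knockout-labelled median turned to 0.01 after quantile normalization. Between genotypes, Nfatc1 and Nfatc4 were lower and Nfat5 and Nfatc3 higher in knockout-labelled cells in both media. The 2 genotype comparisons share no array, and neither do the 2 responses, but each genotype comparison shares arrays with both responses.

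**Figure D2:**
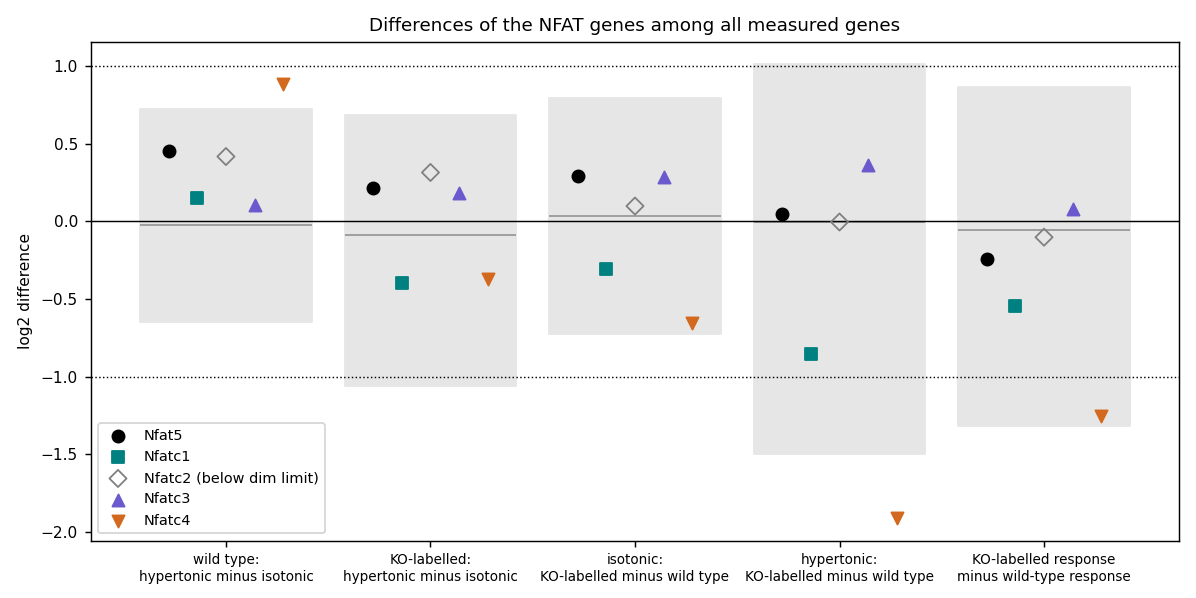
Log2 difference (vertical axis) of each NFAT gene in the 5 comparisons, over a grey band that holds the middle 95% of all measured genes, with a line at their median and dotted lines at 2-fold. Nfatc4 lies outside the band in the wild-type response (0.88) and in the hypertonic genotype difference (-1.91), and Nfatc2 is drawn hollow because it was below the dim limit.

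The genes with the profile nearest to that of Nfatc4 were found over the 4 arrays as the smallest root mean square distance between log2 profiles, each centred on its own mean, among genes above the dim limit on every array. They were Sh3kbp1 (distance 0.06), which encodes an adaptor of receptor endocytosis, Ttyh3 (0.08), Tmem119 (0.09), the unconventional myosin gene Myo1d (0.09) and the membrane scaffold gene Mpp1 (0.09). Sh3kbp1 read 6.36 and 6.59 in knockout-labelled hypertonic and isotonic cells, against 8.12 and 7.31 in wild-type hypertonic and isotonic cells. These 5 were also the full set within a distance of 0.1 among 8919 genes compared. Nfat5 had 145 genes within that distance, Nfatc1 had 155 and Nfatc3 had 596, so the profile of Nfatc4, with a range of 1.91, had few near neighbours. The nearest to Nfat5 were the transcriptional regulator gene Hes6 (0.02), Snx33 (0.03), Tctn2 (0.03), Rida (0.03) and the autophagy receptor gene Nbr1 (0.03). With 4 arrays such nearness is a description of these pools.

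**Figure D3:**
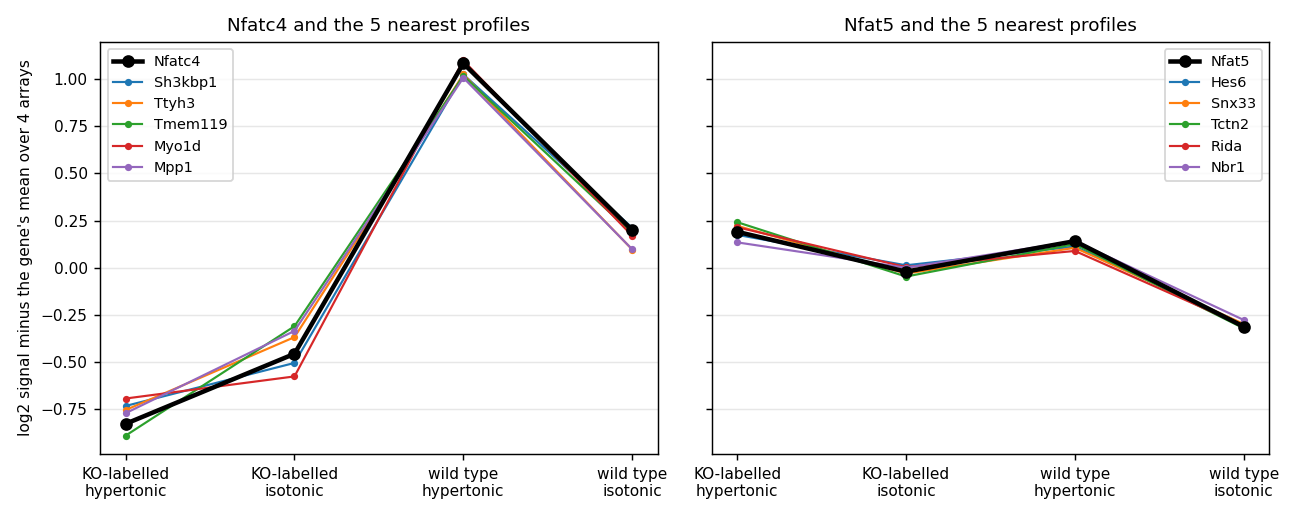
Log2 signal minus each gene's mean over the 4 arrays (vertical axis) for Nfatc4, left, and Nfat5, right, each in black with its 5 nearest profiles in colour. The Nfatc4 group peaks in wild-type hypertonic cells and is lowest in knockout-labelled hypertonic cells, while the Nfat5 group is lowest in wild-type isotonic cells.

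The genes that act on the NFATc proteins were then read in order of their place in the pathway. Of 11 measured genes of calcium entry and release, none passed 2-fold in either response. Of all measured genes 1.42% did in wild-type and 3.46% in knockout-labelled cells, so with 11 genes nothing is read from that count. In hypertonic medium 3 of the 11 differed at least 2-fold between genotypes, where 9.00% of all measured genes did. Itpr2, a calcium release channel of the endoplasmic reticulum, was lower in knockout-labelled cells (-1.16). Its signal was 5.47 and 5.34 in knockout-labelled hypertonic and isotonic cells, against 6.62 and 5.69 in wild-type hypertonic and isotonic cells. The knockout-labelled isotonic signal was below the dim limit and the hypertonic one just above it, so the size of its difference is poorly determined. The phospholipase gene Plcg2 (1.09) and the cation channel gene Trpc1 (1.10) were higher in knockout-labelled cells. Trpc1 read 5.08 in wild-type hypertonic cells, below the dim limit, so the size of its difference is poorly determined. It could enter that count in this direction only. After quantile normalization the calcium channel gene Orai2, at 0.94 as deposited, passed too. Stim1, the calcium sensor of the reticulum, differed by 0.21, and Orai1, the channel it opens, by 0.04.

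Calcineurin itself is built of a catalytic and a regulatory subunit. Its 4 measured genes had a median of -0.51 between knockout-labelled and wild-type cells in hypertonic medium, beside -0.007 over all genes, and none passed 2-fold. Their values ran from -0.81 for Ppp3cc to -0.04 for Ppp3cb, the last well within the probe set SD of 0.21. Ppp3cc, a catalytic subunit gene, read 5.53 and 6.52 in knockout-labelled hypertonic and isotonic cells, against 6.34 and 6.43 in wild-type hypertonic and isotonic cells. Its response in knockout-labelled cells, -0.99, became -1.02 with differences centred on their median over all one-gene probe sets, dim ones included. That median was 0.03 here, opposite in sign to the -0.09 over measured genes, so the step over the limit rests on which probe sets are centred on. The catalytic subunit gene Ppp3ca read 8.11 and 8.35 in knockout-labelled hypertonic and isotonic cells, against 8.87 and 8.37 in wild-type hypertonic and isotonic cells. It was thus higher in hypertonic medium in wild-type cells (0.50) and lower in knockout-labelled cells (-0.23). The regulatory subunit gene Ppp3r1 differed by -0.32 in knockout-labelled and by -0.09 in wild-type cells, and Ppp3r2 was below the dim limit on all arrays.

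None of the measured calcineurin regulators passed 2-fold in any comparison, where between 1.42% and 9.00% of all measured genes did. With so few genes nothing is read from that count. Rcan1, an inhibitor of calcineurin whose own gene is a known NFAT target, was higher in knockout-labelled than in wild-type cells by 0.52 in hypertonic and by 0.26 in isotonic medium. The inhibitor genes Rcan3 and Cabin1 differed by 0.53 each in hypertonic medium. Rcan2, of the same family as Rcan1, was lower in knockout-labelled cells, by -0.18 in hypertonic and -0.60 in isotonic medium. Of 9 regulators measured in hypertonic medium, 5 were above 0 and 4 below, with a median of 0.07. Of 12 measured kinase and scaffold genes, 1 passed 2-fold between genotypes in hypertonic medium, a share near the 9.00% of all measured genes. That was Lrrk2, a large kinase described in mouse macrophages as a brake on NFAT, which read 5.27 and 6.81 in knockout-labelled hypertonic and isotonic cells, against 7.82 and 7.46 in wild-type hypertonic and isotonic cells. Its genotype difference was -2.55 in hypertonic medium and its response in knockout-labelled cells was -1.54. The signal of 5.27 was below the dim limit, so these sizes are poorly determined. The export kinase genes Gsk3b (0.33), Dyrk1a (0.46), Csnk1a1 (-0.18) and Csnk1d (0.03) differed by less than 2-fold in that medium.

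Genes described as regulators of NFAT5 were read next. Of 22 measured, none passed 2-fold in any of the 5 comparisons, where between 1.42% and 9.00% of all measured genes did, and with so few genes nothing is read from that count. Their median was 0.05 in the knockout-labelled response and -0.07 in the wild-type response. Akap13, the exchange factor that links osmotic stress to NFAT5 induction, was higher in hypertonic medium by 0.15 in knockout-labelled and by 0.30 in wild-type cells. Mapk14, encoding p38 alpha, differed by 0.10 in knockout-labelled and by -0.02 in wild-type cells. Among the 22, the responses of the genotypes were farthest apart for Cdk5, encoding a kinase of NFAT5, with -0.21 in knockout-labelled and 0.56 in wild-type cells.

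The Rel and NF-kB list joins factor genes, whose products share the DNA-binding fold, with the inhibitor genes Nfkbia, Nfkbib and Nfkbie. Most of its measured genes went in different directions in the genotypes. All 7 measured were above 0 in the response of knockout-labelled cells, with a median of 0.33 beside -0.09 over all genes. In wild-type cells 5 of 7 were below 0, with a median of -0.38 beside -0.02. Rela (0.06) and Nfkbia (0.13) were above 0 there too. Nfkb2 read 9.31 and 8.88 in knockout-labelled hypertonic and isotonic cells, against 8.66 and 9.28 in wild-type hypertonic and isotonic cells. Its difference of responses was 1.05, the 1 value of the list past 2-fold, close enough to the limit for centring over all one-gene probe sets to take it just below. Relb, at 0.93 as deposited, passed after quantile normalization (1.06). The medians kept their signs under quantile normalization, cyclic loess normalization and centring.

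Of 18 known NFAT5 target genes on the array, 11 were measured in the response of knockout-labelled cells and 13 in that of wild-type cells. In knockout-labelled cells 5 of the 11 were above 0, with a median of -0.12, beside 39.9% of all measured genes. In wild-type cells 13 of the 13 were above 0, with a median of 0.38, beside 46.0% of all measured genes. With dim genes included, 11 of 18 in knockout-labelled and 16 of 18 in wild-type cells were above 0. In wild-type cells 4 passed 2-fold, all upward, where 1.01% of all measured genes did in that direction. They were the betaine transporter gene Slc6a12, the inositol transporter gene Slc5a3, the water channel gene Aqp1 and Ranbp3l. None passed in knockout-labelled cells, although 2 of the 4, Slc6a12 and Ranbp3l, were below the dim limit on both arrays there and could not be called. These 2 also counted as measured in wild-type cells through the hypertonic array alone. They could thus only be above 0 among the 13, and could pass 2-fold upward only. The response of Slc5a3 in knockout-labelled cells was -0.98, and that of S100a4 in wild-type cells was 0.98. The chaperone gene Hspa4l read 8.47 and 8.82 in knockout-labelled hypertonic and isotonic cells, against 9.78 and 9.05 in wild-type hypertonic and isotonic cells. In hypertonic medium 9 of the 13 measured targets were at least 2-fold lower in knockout-labelled cells, where 6.43% of all measured genes were, and 8 were after quantile normalization. Slc6a12 and Ranbp3l were above the dim limit on the wild-type hypertonic array alone, so they could enter that count in this direction only. In isotonic medium 9 of 11 measured targets were lower in knockout-labelled cells, where 54.8% of all measured genes were higher. Their median was -0.47 beside 0.03 over all measured genes. S100a4 (-2.24) passed 2-fold there, as 2.87% of all measured genes did in either direction. The hypertonic count thus also holds differences present in isotonic medium. The list holds S100a4, which is also a fibroblast marker above. It was chosen with earlier results of these data known, so its counts describe and do not test.

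Targets of the calcineurin-dependent NFATs did not move together. Of 16 genes, 5 were measured, since Il2, Il4, Ifng, Fasl and other genes used by lymphocytes were below the dim limit on all arrays. Vcam1, an adhesion molecule gene, was higher in knockout-labelled than in wild-type hypertonic cells by 1.25, with signals of 9.29 and 9.17 in knockout-labelled hypertonic and isotonic cells, against 8.04 and 8.91 in wild-type hypertonic and isotonic cells. The protease gene Adamts1 was lower in hypertonic medium in knockout-labelled cells by -1.06, or -0.98 after quantile normalization. Ptgs2, encoding cyclooxygenase 2, had responses of 0.45 in knockout-labelled and 0.15 in wild-type cells.

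**Figure D4:**
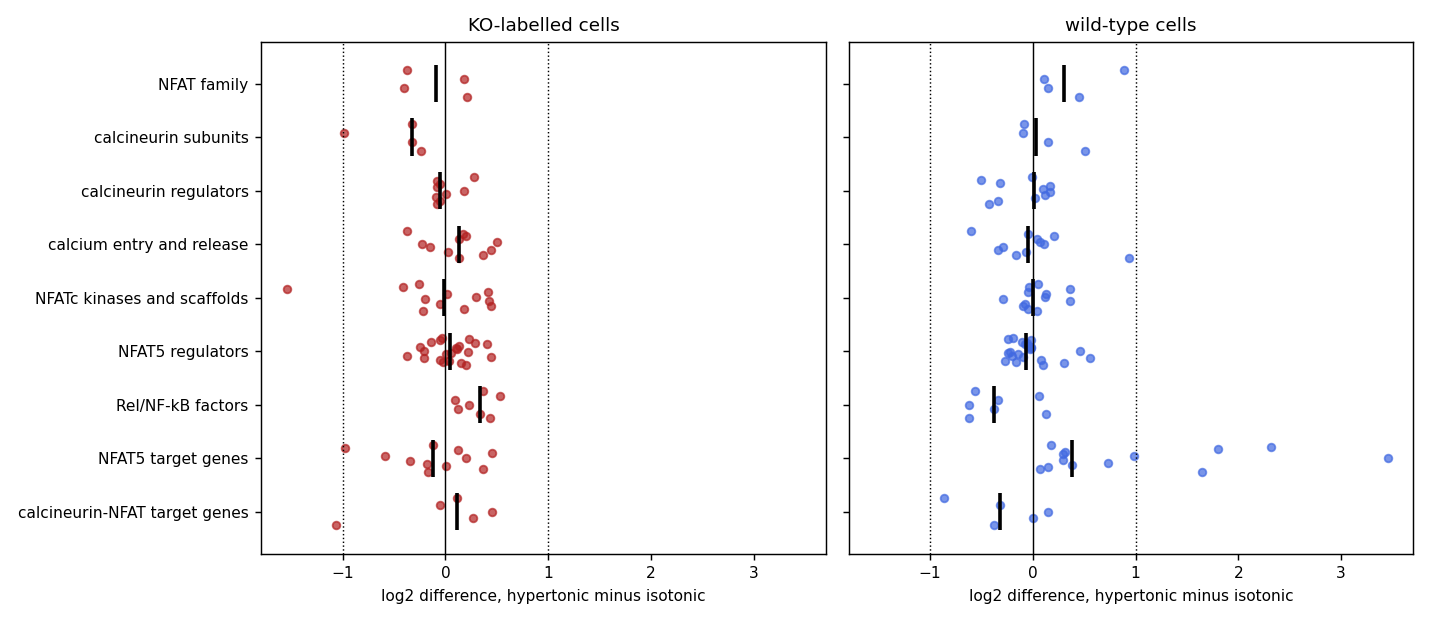
Log2 difference between hypertonic and isotonic medium (horizontal axis) of the measured genes of each list, 1 point per gene, in knockout-labelled cells (left) and wild-type cells (right), with bars at list medians and dotted lines at 2-fold. Points of the Rel and NF-kB list lie right of 0 in knockout-labelled cells and mostly left of it in wild-type cells, and 4 NFAT5 targets lie past 2-fold in wild-type cells.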

How the data were processed

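The authors deposited a table with 1 value for each probe set on each array. The unit of the deposited values was taken to be log2 signal from their range, 1.57 to 13.94. The submitters' processing notes on how the authors made these log2 values name MAS5, with no version. The sources used here do not give the background correction, normalization or genome build. Values were used as deposited. Of 35557 probe sets, 21789 had 1 gene symbol in the platform annotation, 1621 had several and 12147 had none. For the 999 genes with several one-gene probe sets the one with the highest mean was used.

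Differences were taken between arrays, with a limit of 2-fold and the dim limit at the 50th percentile of one-gene probe sets. The counting and profile steps were tested on simulated data. The members and gene lists were chosen with earlier results of these data known. The rule for named genes was all 5 NFAT genes, from each list and comparison the genes past 2-fold and the 3 farthest from 0, and the 5 nearest profiles. List genes named outside it were chosen after their values were seen: Stim1, Orai1, Mapk14, Csnk1a1 and Csnk1d stand for pathway steps, and Ppp3r2, Il2, Il4, Ifng and Fasl for genes below the dim limit. Nfkbia and Nfkbib were also named outside it, to describe the Rel and NF-kB list. The cell type markers named, such as Vim, Fn1, Dcn, Lum, Tubb3, Cnn1 and Cd68, and Xist were also chosen after their values were seen. Some listed genes were not analysed here.

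Promoter windows came from RefSeq tables on GRCm38.p6, and the start of Nfatc1 was not used here. Quantile and cyclic loess normalization were done with limma 3.58.1 in R 4.3.3. All else was done in Python 3.11.15 with numpy 2.4.6, pandas 2.3.3 and matplotlib 3.10.9.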

Additional observations from a re-analysis of the deposited data

Results flagged for a closer look

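The responses of the genotypes to hypertonic medium ran in opposite directions for 2 NFAT genes, whatever their size, and for 13 list genes. Only list genes that the rule for named genes had picked in the responses or their difference were searched. They were kept where their responses exceeded the probe set SD in both genotypes. List genes outside that rule were not searched, so 13 is not a count over the whole lists. The wild-type response of Nfatc1 did not exceed it, at 0.99 times that SD. With 1 array per group these differences were not tested. The share of all measured genes with opposite responses was not computed, so nothing is read from these counts. Of all measured genes, 39.9% were above 0 in the knockout-labelled response and 46.0% in the wild-type response. Values are log2 differences, the response of knockout-labelled cells minus that of wild-type cells. Nfatc4 had -1.26 and Nfatc1 had -0.55. Among NFAT5 targets, Slc5a3 had -2.78, S100a4 had -1.56 and Hspa4l had -1.08. Lrrk2 had -1.90, the calcineurin genes Ppp3ca and Ppp3cb had -0.74 and -0.48, and the kinase genes Cdk5 and Map2k6 had -0.77 and -0.67. Positive values were found for Nfkb2 (1.05), Relb (0.93), Nfkbie (0.85), the calcium channel gene Orai2 (0.78) and the calcium release channel gene Itpr3 (0.54).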

How the results depend on the processing

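The 25 differences of the NFAT genes (5 genes in 5 comparisons) kept their sign and moved by less than 1 probe set SD under quantile normalization, cyclic loess normalization and centring on the median, where the largest shifts were 0.14, 0.16 and 0.05. With 1 probe set per NFAT gene, the mean of probe sets and the probe set with the largest difference gave the deposited values. The number of NFAT genes past 2-fold was the same under those settings, without a dim limit and with that limit raised to the 75th percentile. At 1.5-fold, 1 gene passed in the wild-type response and 1 in the isotonic genotype difference, Nfatc4 in both, and 2 in the hypertonic genotype difference, Nfatc4 and Nfatc1, by construction of the lower limit. An alternative chosen after seeing the data put the other knockout-labelled array in place. Against the wild-type isotonic array, the knockout-labelled hypertonic array gave -1.03 for Nfatc4, so 1 gene passed 2-fold in place of 0. Against the wild-type hypertonic array, the knockout-labelled isotonic array gave -1.54 for Nfatc4, and Nfat5 changed sign to -0.16. Both mix medium with genotype. Centring used the median over all one-gene probe sets, dim ones included. List genes near 2-fold crossed the limit under a scaling: S100a4 upward in the wild-type response after loess normalization or centring, and Slc5a3 downward in the knockout-labelled response after centring. The difference of responses cannot be had without the knockout-labelled hypertonic array. No paired analysis was possible because each group has 1 array. Without replicate arrays, the variation between cultures behind any value is unknown.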
